A study of Mus musculus with 8 samples.

Results

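The interferon-stimulated genes described here are 41 mouse genes, chosen from knowledge of the interferon response with earlier results of these data known. They were looked up by exact symbol among the 21959 genes of the deposited brain expression table. All 41 had a row. Of these, 39 had enough reads to be tested, each with at least 9 counts in every library, and Mx1 and Zbp1 did not. The study concerns the effect on sleep of isoliensinine, an alkaloid found in lotus seed. It sequenced polyadenylated RNA from brain in 8 libraries: 4 of the isoliensinine group (IsoL) and 4 of the Model group, which was given PCPA (para-chlorophenylalanine, an inhibitor of serotonin synthesis). Every library is labelled wild type. According to the design text the animals were female ICR mice treated over 7 days. It lists IsoL doses of 12.5, 25 and 50 mg/kg, and speaks of dissected hypothalamus where the tissue label says brain. Which dose was sequenced, and whether the IsoL mice also received PCPA, is not stated. No untreated group was analysed here, so every difference sets IsoL against Model alone. Nothing in the labels states that each library is its own mouse. P-values here therefore reflect variation from library to library, possibly of technical origin.

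Interferons are cytokines that cells release on sensing viral nucleic acid or damage. Type I interferon binds the receptor made of Ifnar1 and Ifnar2, the kinases Jak1 and Tyk2 activate Stat2, and Stat2 acts with Irf9 in a complex that binds the interferon-stimulated response element (ISRE) in the promoters of its target genes. Type II interferon acts through another site, the gamma activated site (GAS). In brain, microglia, endothelial cells, astrocytes and neurons can all express such genes, at a low level at rest.

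Summed counts were 15731923 to 21620466 in the IsoL libraries, the highest in IsoL 4, and 14262836 to 15886850 in the Model libraries. Model 2 stood apart within its group, where comparing its counts with each other Model library gave a chi-square per degree of freedom from 10.9 to 12.4. Every other pair within a group gave 2.52 to 8.04. Reads of 4 Y-linked genes were present in each of the 8 libraries, together 301 to 354 CPM (counts scaled to library size), which goes against the stated sex. The neuronal marker list was well read in every library, at 4558 to 4876 CPM in IsoL and 4540 to 5127 CPM in Model. Hypothalamic markers summed to 59.9 to 130 CPM in IsoL and 159 to 193 CPM in Model, so these sums did not overlap. The list was not uniform. Of its 9 genes 7 had a log2 fold change below 0, while Pomc and Agrp were at 0.24 and 0.13. Pmch was lower in IsoL, with a log2 fold change of -0.89 (edgeR adjusted p = 0.0471, under the threshold of 0.05 used below). Pmch, Hcrt, Nkx2-1 and Hmx2 did not overlap between the groups. The other genes of the list overlapped, among them Hmx3, Oxt and Avp. Avp had 4.60 to 31.1 CPM in IsoL and 10.2 to 76.7 CPM in Model.

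No interferon-stimulated gene passed the threshold between IsoL and Model, while several of them varied far more among the IsoL libraries than among the Model libraries. In edgeR's quasi-likelihood test with Benjamini-Hochberg adjustment at 0.05 over all 14536 genes, 0 of 39 members tested were called, where 0.275% of all genes were. DESeq2 called 0 of them (1.11% of all genes higher, 1.03% lower) and limma voom 0 (0.764% higher, 0.874% lower). At an unadjusted p under 0.05 the counts were 7 of 39 in edgeR (13.2% of all genes), 6 in DESeq2 (12.3%) and 5 in limma voom (16.4%). The 7 in edgeR had a higher mean in IsoL, a direction in which 6.44% of all genes had such a p, and none had a lower one, against 6.78% of all genes. Of the 39, 30 had a log2 fold change above 0, as did 49.5% of all genes tested. Among the 2530 genes in the middle range of the members' abundance, 2.42 to 9.42 CPM, 55.2% were above 0, with a median of 0.03. Of the 19 members in that range 17 were above 0. The median log2 fold change of the members was 0.21, beside -0.00146 for all genes. It was 0.0940 without IsoL 4 and 0.32 without IsoL 1, and the count above 0 was then 24 and 32. The groups did not overlap, with IsoL higher, for 1 member, Oasl2 (4.05% of all genes), and with IsoL lower for 0 members (4.42%).

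**Figure D1:**
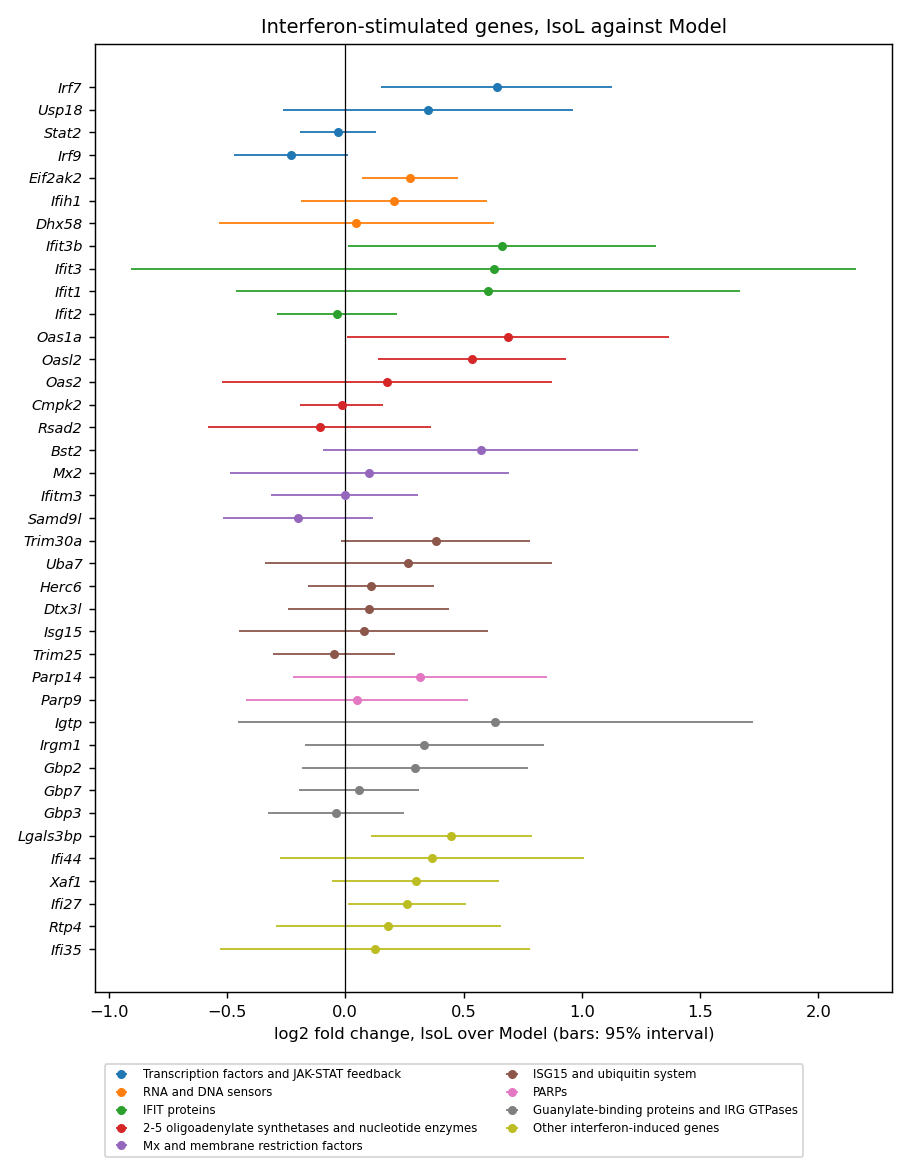
Fitted log2 fold change of IsoL over Model for the 39 members tested (x axis), with bars for the 95% interval, grouped and coloured by role. The values run from -0.23 for Irf9 to 0.69 for Oas1a, and the widest interval is that of Ifit3.

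The reads of each library give the pattern its shape. The summed level of all 41 members was 299, 285, 367 and 401 CPM across IsoL 1 to 4, and 294, 310, 325 and 305 CPM across Model 1 to 4. A score, the mean over the 39 members of the log2 CPM centred per gene, was -0.12, -0.21, 0.25 and 0.46 in IsoL 1 to 4 and -0.24, -0.08, 0.03 and -0.08 in Model 1 to 4. IsoL 4 and IsoL 3 thus lay above every Model library, and IsoL 1 and IsoL 2 lay within the range of the Model libraries. The standard deviation (SD) of the score was 0.31 over the IsoL libraries and 0.11 over the Model libraries. IsoL 4 was the highest of the 8 libraries for 24 of 39 members, which it was for 9.98% of all genes tested. IsoL 3 was the highest for 5 members, which it was for 8.92% of all genes. Among the 2530 genes of like abundance these shares were 13.3% for IsoL 4 and 12.9% for IsoL 3. IsoL 1 was the highest for 0 members (13.0% of all genes tested) and IsoL 2 for 1 (9.67% of all genes tested). Leaving out the 5 members with the largest spread, named below, gave scores of -0.06, -0.16, 0.18 and 0.35 in IsoL 1 to 4 and of -0.19 to 0.04 in Model.

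**Figure D2:**
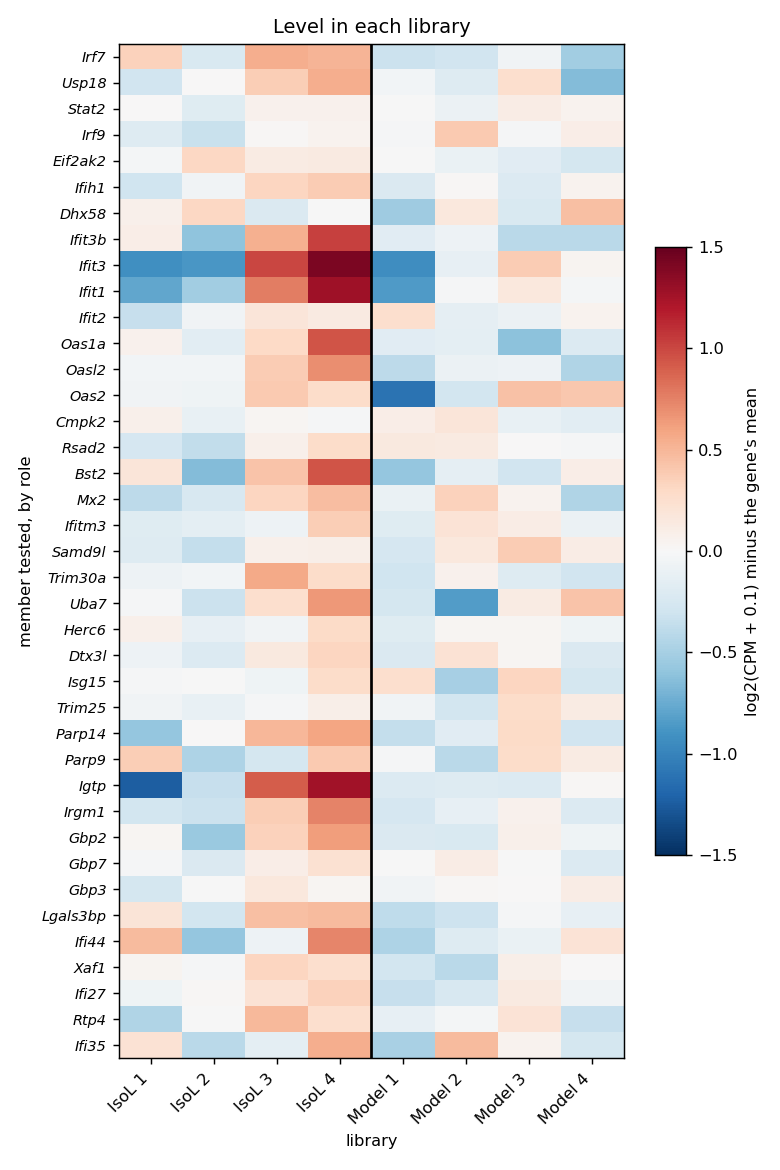
Log2(CPM + 0.1) of each of the 39 members tested minus that gene's mean over the 8 libraries (colour), with IsoL libraries left of the black line and Model libraries right of it. The columns of IsoL 3 and IsoL 4 are red for most genes, most strongly for Ifit3, Ifit1 and Igtp.

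Gene by gene, the SD of log2 CPM had a median over the 39 members of 0.32 in IsoL and 0.21 in Model. Over all genes tested it was 0.0975 in IsoL and 0.13 in Model, the opposite order. The SD was larger in IsoL than in Model for 27 of 39 members, and for 34.0% of all genes. Model 2, which stood apart within its group, was the highest of the 8 libraries for 23.5% of all genes and for 2 members. The share of all genes more spread in IsoL was not computed without Model 2. Because low counts vary more, genes of like abundance are the nearer comparison. Among the 2530 genes in the middle range of the members' abundance, 2.42 to 9.42 CPM, the median SD was 0.19 in IsoL and 0.24 in Model. The 19 members in that range had 0.40 in IsoL and 0.19 in Model, and 17 of the 19 were more spread in IsoL, as were 38.8% of the 2530 genes. Counting error alone would give a median SD of about 0.16 in IsoL and 0.18 in Model over the 39 members. The observed SD exceeded the gene's own counting error for 35 members in IsoL and 28 in Model. Over all 14536 genes tested it did so for 10613 in IsoL and 11697 in Model. Among the 2530 genes of like abundance it did so for 1737 in IsoL and 1820 in Model. No test was made of these spreads.

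**Figure D3:**
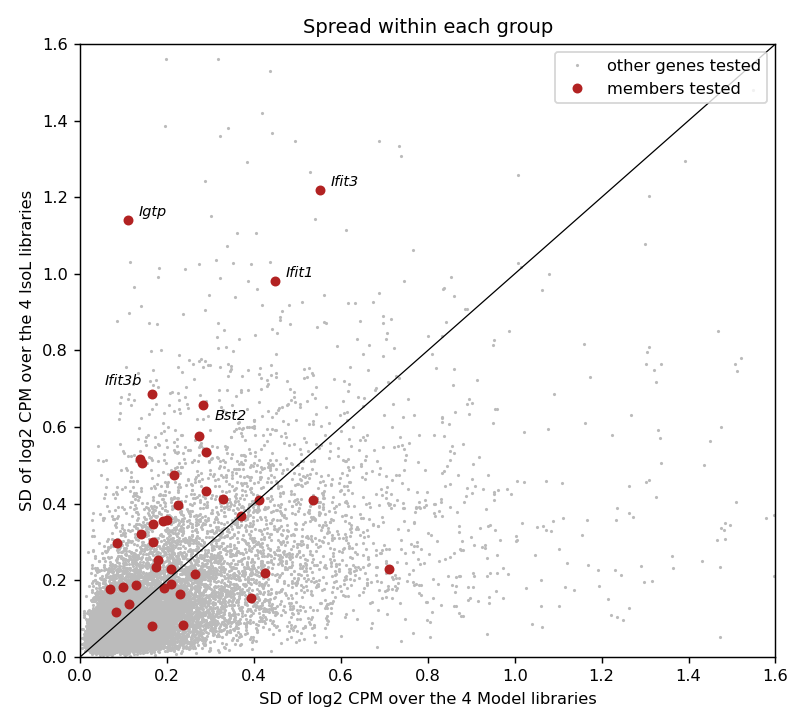
SD of log2 CPM over the 4 IsoL libraries (y axis) against that over the 4 Model libraries (x axis) for each gene tested, members in red and other genes in grey, with the line of equal spread. Both axes end at 1.6, beyond which lie 41 genes and no member, and Ifit3, Igtp and Ifit1 are the most spread members in IsoL.

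The 5 members most spread within IsoL were Ifit3, Igtp, Ifit1, Ifit3b and Bst2. Their promoters are shown because the ISRE is a site through which type I interferon acts on its target genes, and Isg15, a textbook target with little spread in IsoL, is set beside them. The sequences are RefSeq's, on GRCm38.p6, 5′ to 3′ in the direction of the gene, from windows of 250 bases before to 50 bases after the start. The capitals mark every match to the ISRE core, GAAA followed by NN and again GAAA or, on the other strand, TTTC followed by NN and again TTTC (N is any base), with matches that overlap run together.
Ifit3 (chr19:34583353-34583436, + strand): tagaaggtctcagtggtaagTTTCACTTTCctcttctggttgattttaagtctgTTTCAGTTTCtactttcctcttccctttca
Ifit3b (chr19:34607749-34607832, + strand): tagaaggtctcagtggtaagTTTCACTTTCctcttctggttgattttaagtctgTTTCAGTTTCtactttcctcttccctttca
Ifit1 (chr19:34640765-34640833, + strand): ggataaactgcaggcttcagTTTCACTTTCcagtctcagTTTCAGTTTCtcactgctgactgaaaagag
Igtp (chr11:58199502-58199551, + strand): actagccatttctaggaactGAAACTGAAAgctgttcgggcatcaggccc
Bst2 (chr8:71537567-71537622, - strand): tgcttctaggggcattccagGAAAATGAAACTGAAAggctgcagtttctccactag
Isg15 (chr4:156200855-156200916, - strand): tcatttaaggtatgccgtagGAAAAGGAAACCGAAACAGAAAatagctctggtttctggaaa

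The Ifit3 and Ifit3b stretches are the same letter for letter, within a run of 169 identical bases that the 2 windows share. Of the 41 members, 31 had an entry in the promoter table and 17 of those held the core in a window, 54.8%, against 3.99% of 27025 genes in the table. The GAS letters TTCNNNGAA, which read the same on both strands, were in a window of 8 of the 31 members, 25.8%, against 9.55% of all genes, and the windows of Igtp and Bst2 were among those holding both. The members were chosen from knowledge of the interferon response, so these shares are no result about IsoL or Model. The 5 most spread members were all among the 17 with the core, a set that was picked on its values. The median SD in IsoL was 0.32 over the 17 members with the core and 0.23 over the 14 without it, and in Model it was 0.14 with the core and 0.20 without it. The 8 tested members with no promoter entry had the highest median SD, 0.38 in IsoL and 0.31 in Model. Among the 14 without a match were Irf7, Ifit2, Oasl2, Cmpk2 and Lgals3bp. A match is a description of letters in these windows and not a bound site.

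The IFIT proteins bind viral RNA and block its translation, and their genes lie side by side on chromosome 19, from 34528094 to 34627409 in the coordinates of the deposited table (build not given in the sources used here). Ifit3 (ENSMUSG00000074896) had 3.32, 3.42, 12.8 and 17.1 CPM in IsoL 1 to 4 and 3.29, 5.82, 8.28 and 6.52 CPM in Model 1 to 4. On counts this was 54, 59, 202 and 372 reads in IsoL, against 47, 93, 119 and 96 in Model. IsoL 3 and IsoL 4 were above every Model library and IsoL 1 and IsoL 2 were near the lowest, so the log2 fold change of 0.63 had a standard error (SE) of 0.64 (edgeR adjusted p = 0.725). It was 0.11 without IsoL 4 and 0.90 without IsoL 1. Ifit1 had the same order among the IsoL libraries, with 1.78, 2.15, 5.38 and 7.66 CPM in IsoL and 1.68, 3.07, 3.48 and 3.06 CPM in Model (log2 0.60, SE 0.47, edgeR adjusted p = 0.627). The highest IsoL library had 4.30 times the CPM of the lowest for Ifit1 and 5.14 times for Ifit3, against 2.07 times for Ifit1 and 2.52 times for Ifit3 among the Model libraries.

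Ifit3b, the close copy of Ifit3, had 4.67, 2.84, 6.33 and 8.98 CPM in IsoL and 3.85, 4.13, 3.27 and 3.26 CPM in Model. IsoL 2 was the lowest and IsoL 4 the highest of the 8 libraries, and the groups overlapped (log2 0.66, SE 0.30, 95% interval 0.01 to 1.31, edgeR adjusted p = 0.367). Reads can be split between Ifit3 and Ifit3b, so the value of each is uncertain. Ifit2, the remaining gene of the cluster, was less spread in IsoL, with an SD of log2 CPM of 0.24 (0.17 in Model). Here too IsoL 3 and IsoL 4 were above IsoL 1 and IsoL 2, but below Model 1. Ifit2 had 24.3, 29.7, 34.9 and 33.7 CPM in IsoL and 36.7, 28.0, 29.1 and 31.9 CPM in Model (log2 -0.03, 95% interval -0.29 to 0.22, edgeR adjusted p = 0.929). It was also the most abundant of the 4 per length, at 7.89 FPKM (reads scaled to gene length and library size) on average over the 8 libraries, against 4.35 for Ifit3, 2.34 for Ifit3b and 1.33 for Ifit1.

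**Figure D4:**
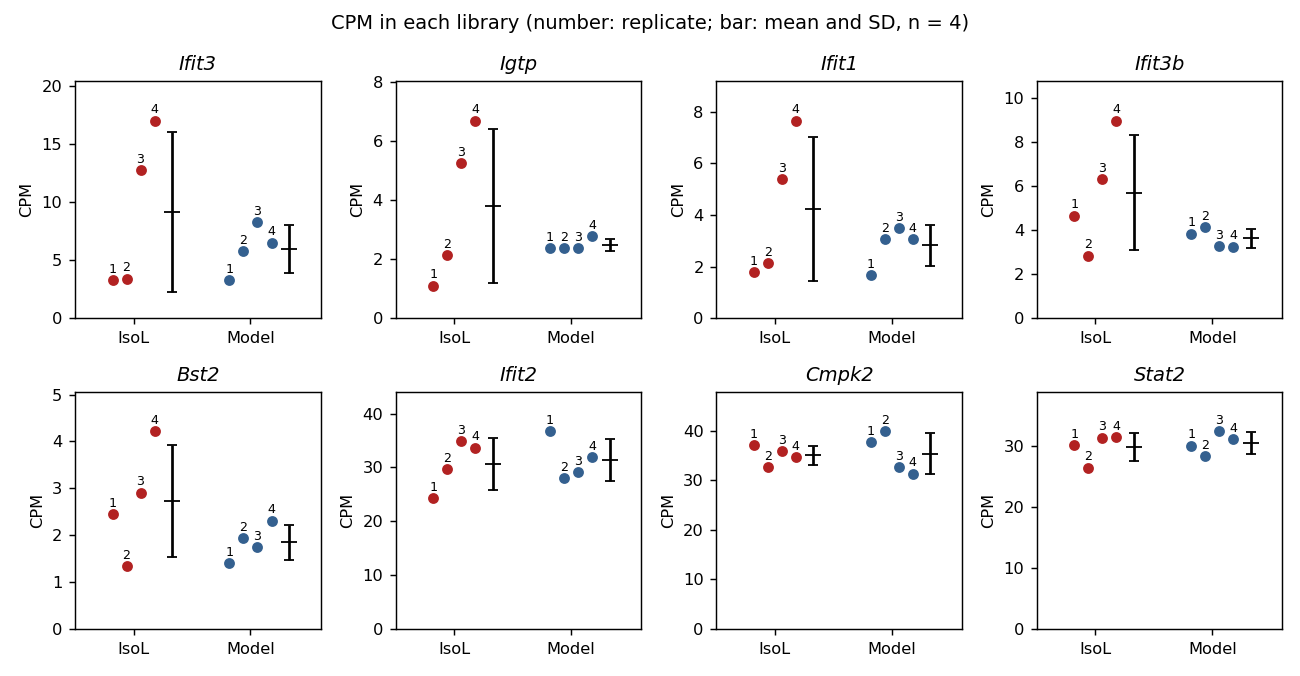
CPM of the 5 members most spread in IsoL and of Ifit2, Cmpk2 and Stat2 (y axis, starting at 0) in each library. IsoL is in red left of Model in blue, with replicate numbers by the points and the mean with its SD (n = 4) beside each group. Ifit3, Igtp and Ifit1 are highest in IsoL 4 and IsoL 3, while the IsoL and Model ranges of Ifit2, Cmpk2 and Stat2 overlap.

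The immunity-related GTPases and guanylate-binding proteins attack the vacuoles of intracellular pathogens and respond strongly to type II interferon. Igtp (ENSMUSG00000078853, also called Irgm3) had 1.11, 2.15, 5.25 and 6.69 CPM in IsoL 1 to 4 and 2.38, 2.38, 2.37 and 2.78 CPM in Model 1 to 4. The IsoL values spanned 6.06 times and enclosed the Model values, which spanned 1.18 times. The log2 fold change was 0.63 (SE 0.48, edgeR adjusted p = 0.617). In the deposited coordinates Igtp overlaps Irgm2 on the same strand, so some reads cannot be assigned to 1 of them. Irgm1, a regulator of the other GTPases of the family, had 7.61, 7.36, 12 and 15.5 CPM in IsoL and 7.76, 8.45, 9.67 and 8.01 CPM in Model (log2 0.33, SE 0.23, edgeR adjusted p = 0.572). Gbp2 had 4.60, 3.01, 5.76 and 6.97 CPM in IsoL and 3.85, 3.82, 4.73 and 4.28 CPM in Model (log2 0.29, SE 0.22, edgeR adjusted p = 0.604). For Irgm1 and Gbp2 too, IsoL 3 and IsoL 4 were above every Model library and IsoL 2 below every one. Gbp3 and Gbp7 overlapped between the groups, with log2 fold changes of -0.04 (95% interval -0.33 to 0.25) and 0.06 (95% interval -0.20 to 0.31). In all, 0 of 5 members of this group passed, 4 had a log2 fold change above 0, and the median was 0.29. Its score had an SD of 0.47 in IsoL and 0.05 in Model.

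Transcription factors of the pathway differed among themselves. Irf7, the factor that amplifies type I interferon production and is itself induced by it, had 3.07, 2.03, 3.54 and 3.44 CPM in IsoL and 1.89, 1.94, 2.30 and 1.63 CPM in Model. Only IsoL 2 lay within the Model range. The log2 fold change was 0.64 (SE 0.23, 95% interval 0.15 to 1.13, edgeR adjusted p = 0.255), on 216 summed reads in IsoL and 115 in Model, and Irf7 overlaps Phrf1 on the opposite strand. Irf9, the DNA-binding partner of Stat2, had 17.1, 15.5, 19.8 and 20.2 CPM in IsoL and 19.3, 25.7, 19.3 and 21 CPM in Model. Its log2 fold change was the lowest of the 39 members, -0.23 (SE 0.11, edgeR adjusted p = 0.397), and Irf9 overlaps Rnf31 on the same strand. Stat2 had 26.5 to 31.5 CPM in IsoL and 28.3 to 32.5 CPM in Model (log2 -0.03, 95% interval -0.19 to 0.13). Usp18, which shuts down signalling at the receptor and removes ISG15 from proteins, had 1.17 to 2.15 CPM in IsoL and 0.883 to 1.74 CPM in Model (log2 0.35, edgeR adjusted p = 0.636). Of these 4 genes, 0 passed and 2 had a log2 fold change above 0.

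Oasl2 (ENSMUSG00000029561), a relative of the 2-5 oligoadenylate synthetases that mark viral RNA for decay, had the smallest p of all members. It had 5.53, 5.57, 7.46 and 9.31 CPM in IsoL and 4.34, 5.38, 5.43 and 4.14 CPM in Model. The groups did not overlap, though the lowest IsoL and the highest Model library were close (log2 0.54, SE 0.19, 95% interval 0.14 to 0.93, edgeR adjusted p = 0.242). Oas1a, an oligoadenylate synthetase, had 1.17, 0.986, 1.39 and 2.25 CPM in IsoL and 0.979, 1.0, 0.696 and 0.951 CPM in Model (log2 0.69, SE 0.32, edgeR adjusted p = 0.369). It rests on 107 summed reads in IsoL and 54 in Model, and near-identical copies of the Oas1 cluster can share its reads. Oas2, Rsad2 (viperin) and Cmpk2 had log2 fold changes of 0.18, -0.11 and -0.01. Cmpk2, a mitochondrial nucleotide kinase that neighbours Rsad2 on chromosome 12, was the steadiest member in IsoL by the ratio of its highest to lowest library. It had 37.1, 32.6, 35.9 and 34.7 CPM in IsoL and 37.8, 39.9, 32.6 and 31.4 CPM in Model (95% interval of the log2 fold change -0.19 to 0.16). In this group of 5, 0 passed and 3 had a log2 fold change above 0.

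Sensors of foreign nucleic acid had higher means in IsoL without passing. Eif2ak2, which encodes PKR, the kinase that stops translation on double-stranded RNA, had 15.4, 19.5, 17.2 and 17.3 CPM in IsoL and 15.7, 14.7, 14 and 13 CPM in Model. IsoL 1 was the only IsoL library within the Model range, and here IsoL 2 was the highest of all (log2 0.27, SE 0.10, edgeR adjusted p = 0.243). Ifih1, which encodes the RNA sensor MDA5, had 3.5, 4.17, 5.44 and 5.68 CPM in IsoL and 3.71, 4.38, 3.76 and 4.48 CPM in Model (log2 0.21, SE 0.18, edgeR adjusted p = 0.666). Dhx58, the related helicase LGP2, had a log2 fold change of 0.05 (95% interval -0.54 to 0.63). Zbp1, the Z-form nucleic acid sensor, was too low to test, with 15, 5, 8 and 15 reads in IsoL and 2, 5, 3 and 6 in Model. Of these 4 sensors 3 were tested, 0 passed and 3 had a log2 fold change above 0.

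Among the restriction factors, Bst2 (tetherin, which holds budding virus at the membrane) had 2.46, 1.33, 2.91 and 4.22 CPM in IsoL and 1.40, 1.94, 1.74 and 2.31 CPM in Model. IsoL 2 was the lowest of the 8 libraries and IsoL 4 the highest (log2 0.57, SE 0.31, edgeR adjusted p = 0.454). Samd9l, a restriction factor that acts on translation, had 7.30 to 9.95 CPM in IsoL and 7.83 to 12.2 CPM in Model (log2 -0.20, SE 0.15, edgeR adjusted p = 0.597). Ifitm3, which blocks viral entry at endosomes, had 7.80 to 11.4 CPM in IsoL and 7.76 to 10.2 CPM in Model. Its log2 fold change was -0.00321 (95% interval -0.31 to 0.31). Mx2, a dynamin-like antiviral GTPase, had a log2 fold change of 0.10 (95% interval -0.49 to 0.69). Mx1, of the same family, was not tested, with 5, 3, 15 and 16 reads in IsoL and 3, 9, 7 and 7 in Model. Here 0 of the 4 members tested passed, and 2 had a log2 fold change above 0.

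The ISG15 system attaches a ubiquitin-like protein to other proteins. Isg15 itself had 1.96, 1.97, 1.90 and 2.43 CPM in IsoL and 2.38, 1.38, 2.50 and 1.63 CPM in Model, overlapping fully (log2 0.08, 95% interval -0.45 to 0.60, edgeR adjusted p = 0.920). Uba7, its activating enzyme, had 2.26 to 4.54 CPM in IsoL and 1.56 to 3.87 CPM in Model (log2 0.27, SE 0.28, edgeR adjusted p = 0.725). Trim30a, a ubiquitin ligase gene of a family with close copies, had 3.87, 3.94, 6.07 and 4.95 CPM in IsoL and 3.29, 4.26, 3.55 and 3.33 CPM in Model (log2 0.38, SE 0.19, edgeR adjusted p = 0.400). Herc6 (the mouse ISG15 ligase), Dtx3l and Trim25 had log2 fold changes of 0.11, 0.10 and -0.05. Of the 6 members 0 passed and 5 had a log2 fold change above 0. Of the ADP-ribosyltransferase genes, Parp14 had 4.30, 6.49, 9.17 and 9.76 CPM in IsoL and 5.03, 5.76, 7.93 and 5.30 CPM in Model (log2 0.31, SE 0.24, edgeR adjusted p = 0.620), with IsoL 1 the lowest of all libraries and IsoL 4 the highest. Parp9, the partner of Dtx3l, overlaps that gene on the opposite strand, and reads of the overlap cannot be told apart without strand. Parp9 had 6.14, 3.42, 3.92 and 6.23 CPM in IsoL and 4.69, 3.57, 5.77 and 5.16 CPM in Model (log2 0.05, SE 0.22, edgeR adjusted p = 0.946). It did not share the order of the IsoL libraries seen in Parp14.

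In the last group of members, all 6 had a log2 fold change above 0 and 0 passed. Lgals3bp, a secreted glycoprotein gene, had 20.6, 14.9, 24.7 and 25.1 CPM in IsoL and 13.8, 14.5, 17.8 and 16.5 CPM in Model. IsoL 2 lay within the Model range and the other IsoL libraries above it (log2 0.45, SE 0.15, 95% interval 0.11 to 0.79, edgeR adjusted p = 0.255). Ifi27, which encodes a mitochondrial and nuclear-envelope protein, had 20.4, 21.6, 24.9 and 27.3 CPM in IsoL and 16.8, 18, 23.4 and 20.5 CPM in Model (log2 0.26, SE 0.12, edgeR adjusted p = 0.350). Ifi27 had the highest level per length of all members, with a mean of 14.7 FPKM, next to Ifitm3 with 13.2, and the median of the 39 was 1.5 FPKM. Xaf1, Ifi44, Rtp4 and Ifi35 had log2 fold changes of 0.30, 0.37, 0.18 and 0.13 (edgeR adjusted p from 0.465 to 0.894).

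The interferon genes themselves were at or near 0. None of the 12 ligand genes looked at could be tested, 6 of them had 0 reads in all libraries, and their summed level was at most 0.23 CPM in IsoL and 0.14 CPM in Model. A count of 0 allows up to 0.138 to 0.190 CPM in an IsoL library and 0.188 to 0.210 CPM in a Model library (3 counts, counting error only). Of 17 receptor and JAK-STAT genes 0 passed, 11 had a log2 fold change above 0 and the median was 0.05. Ifnar1 had 51.0 to 59.3 CPM in IsoL and 51.7 to 58.0 CPM in Model (log2 -0.00132, 95% interval -0.14 to 0.14). Ifnar2 had 9.93 to 10.8 CPM in IsoL and 8.53 to 11 CPM in Model (log2 0.05, 95% interval -0.18 to 0.28). The receptor was thus read at an even level in all libraries.

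Tyk2, the kinase bound to Ifnar1, had the smallest p of the receptor list. It had 19.5, 18.7, 21.7 and 19.7 CPM in IsoL and 16.1, 15.3, 16.3 and 16.1 CPM in Model, with no overlap between groups (log2 0.32, SE 0.08, edgeR adjusted p = 0.113). With DESeq2 it passed, at an adjusted p of 0.0490. Jak2 and Il10rb, the other genes of this list with the smallest p, had log2 fold changes of -0.09 and -0.31 (edgeR adjusted p = 0.479 and 0.425).

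Of 20 genes tested for sensing and interferon induction 0 passed, 15 had a log2 fold change above 0 and the median was 0.09. The SD of log2 CPM was larger in IsoL for 9 of the 20, with a median of 0.213 in IsoL and 0.215 in Model. Nlrc5, which drives transcription of MHC class I genes, had 1.23, 1.39, 4.43 and 5.64 CPM in IsoL and 1.54, 1.06, 1.39 and 1.97 CPM in Model (log2 1.11, SE 0.50, edgeR adjusted p = 0.381). IsoL 3 and IsoL 4 were far above the other 6 libraries. Tlr3 and Tlr9, endosomal nucleic acid receptors, had log2 fold changes of 0.68 and 0.63 (edgeR adjusted p = 0.488 and 0.483). Tlr3 was more spread in Model, with an SD of 0.78 there and 0.29 in IsoL. Of 37 further interferon-stimulated genes tested 0 passed, 26 had a log2 fold change above 0 and the median was 0.07. Their score was -0.10, -0.21, 0.22 and 0.41 in IsoL 1 to 4 and -0.22, -0.11, 0.04 and -0.02 in Model 1 to 4. The IsoL libraries stood in the order they had for the members. The SD of log2 CPM was larger in IsoL for 21 of the 37, with a median of 0.32 in IsoL and 0.23 in Model. Trim12c had 7.37, 5.86, 3.73 and 5.32 CPM in IsoL and 4.27, 1.69, 1.11 and 3.06 CPM in Model, with IsoL 1 the highest (log2 1.14, SE 0.36, edgeR adjusted p = 0.216). With DESeq2 it passed, at an adjusted p of 0.0404. Trim21 and Slfn9 had log2 fold changes of 0.60 and 0.74 (edgeR adjusted p = 0.233 and 0.409). Trim12c belongs to a family of close copies among which reads can be split.

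Markers of other cells moved among the IsoL libraries as well. The 12 markers of microglia and macrophages, none of them at 0, summed to 271, 259, 290 and 318 CPM in IsoL 1 to 4 and to 233 to 271 CPM in Model. As a score they were at -0.09, -0.13, 0.13 and 0.27 in IsoL and -0.13 to -0.00731 in Model, and 9 of the 12 had a log2 fold change above 0. In these bulk samples fewer cells of a type and less RNA per cell cannot be told apart. The 14 markers of blood and infiltrating leukocytes, mostly haemoglobin reads, summed to 112, 105, 153 and 166 CPM in IsoL and to 122 to 138 CPM in Model. Siglech is in this list and in the microglial one. The 7 markers of astrocytes and ependyma had scores of -0.04, -0.10, 0.20 and 0.19 in IsoL 1 to 4 and -0.23 to 0.09 in Model, and summed to 1458 to 1615 CPM in IsoL and 1360 to 1440 CPM in Model. The hypothalamic markers had scores of -0.89, -0.37, 0.06 and -0.10 in IsoL 1 to 4 and 0.17 to 0.47 in Model. Endothelial and pericyte markers summed to 386 to 435 CPM in IsoL and 392 to 426 CPM in Model, and their score did not follow the order of the members. Markers of cortex and hippocampus ran the other way, at 283, 275, 175 and 146 CPM in IsoL 1 to 4 and 160 to 198 CPM in Model. Markers of meninges, fibroblasts and choroid plexus summed to 752, 637, 142 and 114 CPM in IsoL 1 to 4 and 43.3 to 145 CPM in Model. Most of that sum was Ttr, the transthyretin gene of choroid plexus, with 609, 521, 44.8 and 0.46 CPM in IsoL 1 to 4 and 1.06 to 4.59 CPM in Model, and Kl and Folr1 were likewise highest in IsoL 1 and IsoL 2. The collagen gene Col1a1 did not share this order, with 19.5, 14.7, 19.1 and 25.2 CPM in IsoL 1 to 4 and 6.15 to 32.1 CPM in Model. Col1a2 and Dcn were also highest in IsoL 4 among the IsoL libraries. Lum was highest in IsoL 3 instead, with 3.75, 3.07, 4.68 and 3.44 CPM in IsoL 1 to 4 and 1.19 to 4.80 CPM in Model. The part of these cell mixtures, and of depth, in the spread of the interferon-stimulated genes was not tested.

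**Figure D5:**
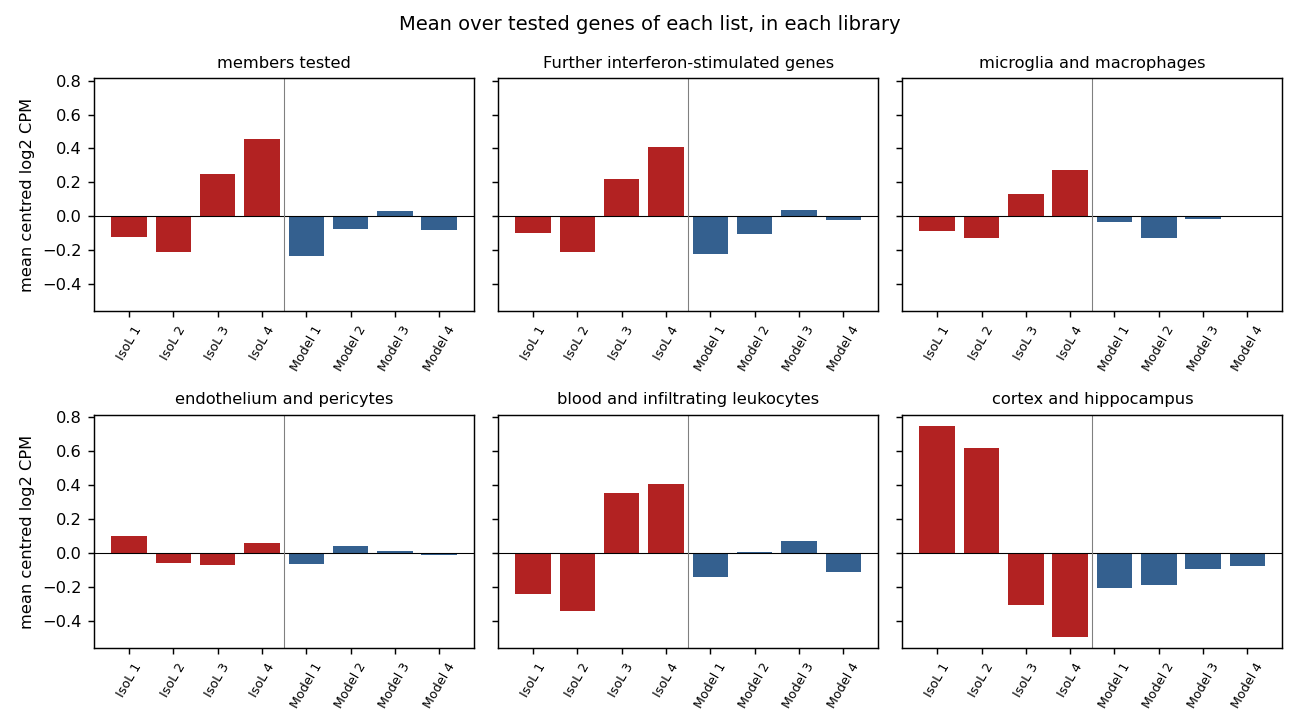
Mean over the tested genes of each list of the log2 CPM centred per gene (y axis, 0 is the gene's mean over 8 libraries) in each library, IsoL in red left of Model in blue. The members, the further interferon-stimulated genes, the microglial markers and the blood markers are highest in IsoL 4 and next in IsoL 3, and the markers of cortex and hippocampus are lowest there. The blood score rests on 6 tested genes, of which Siglech is also in the microglial list.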

How the data were processed

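Polyadenylated RNA of 8 mouse brain libraries was sequenced. The tools were fastp 0.22.0, HISAT2 2.1.0 and HTSeq 0.9.1, per the submitters' processing notes (build, annotation and strand setting not given in the sources used here). Per the file headers, the authors' deposited table holds raw read counts per gene, FPKM values and gene length. Tests used the counts, and FPKM served only to compare levels between genes.

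Genes were filtered with filterByExpr (14536 of 21959 kept), scaled by TMM and fitted by robust quasi-likelihood (edgeR 4.0.16 under R 4.3.3), IsoL minus Model, with Benjamini-Hochberg adjustment over all genes. The SE is the absolute log2 fold change over the root of F, and 95% intervals follow from the t distribution. The threshold was 0.05, and the biological coefficient of variation came to 9.06%. Scores and SDs used log2 CPM with a prior count of 2. DESeq2 1.42.0 and limma 3.58.1 (voom with sample quality weights) were alternatives. The fit was tested on simulated data.

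The members and lists were chosen with earlier results of these data known. Named were members that passed, the 2 with the smallest p in each of 9 role groups, the 5 with the largest SD in IsoL, the 3 genes with the smallest p in each pathway list, and Ifnar1 and Ifnar2 (1 further gene the rule names is not reported here). Other genes named were chosen after their values were seen. Promoters came from RefSeq (GRCm38.p6). Figures were drawn with matplotlib 3.10.9.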

Additional observations from a re-analysis of the deposited data

Results flagged for a closer look

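In 66 groups of 4 libraries (20 members, 12 list genes and the member score, each in both groups), 2 held a library far from the other 3, where chance alone would give about 1 in 20. Igtp in Model was flagged for Model 4, at 2.78 CPM against 2.37 to 2.38 CPM in the other Model libraries. Its gap filled a share of 0.969 of the range, which was small in itself. Oas1a in Model was flagged for Model 3, at 0.696 CPM against 0.951 to 1.0 CPM, a share of 0.834 of the range, on 10 reads against 14 to 16.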

How the results depend on the processing

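The count of members past the threshold was 0 in all alternatives run: size factors of DESeq2, all genes with a read kept (41 members tested), DESeq2, limma voom, the replicate block, a threshold of 0.1 and each library left out. Over all genes, 40 changed, against 74 with no filter, 311 in DESeq2, 238 in limma voom, 138 at 0.1 and 6 to 146 with 1 library left out (146 without Model 2, and 6 to 21 without any other). With the replicate block it was 17, but the numbers do not pair the libraries: same-numbered deviations correlated at 0.02 to 0.07, and not every library correlated best with its own number. The median log2 fold change of the members ran from 0.09 to 0.32 with a library left out and from 0.21 to 0.26 otherwise. The SD of their score in IsoL ran from 0.25 to 0.36. Members above 0 numbered 24 to 32, and members more spread in IsoL 23 to 30 (both looked at after seeing the data). The sign turned for Parp9 in limma voom (-0.10) and with a library left out (-0.0926 to 0.19), and for Ifnar1 with DESeq2 size factors (0.00128), no filter (0.000750), DESeq2 (0.00101) and a library left out (-0.0364 to 0.0364). It also turned for Ifnar2 with a library left out (-0.0122 to 0.11). The cause was not tested. Of 39 members, 14 turned sign in some setting. Most members had few reads (median level 1.5 FPKM), which limits what could be detected.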

Other observations

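The following genes that are no members were chosen after their values were seen. B2m, the light chain of MHC class I, had 49.1, 46.1, 95.3 and 116 CPM in IsoL 1 to 4 and 55.3, 67.3, 59.2 and 57.2 CPM in Model 1 to 4 (log2 0.36, edgeR adjusted p = 0.699). Its SD of log2 CPM was 0.67 in IsoL and 0.12 in Model. Irgm2, a GTPase that neighbours Igtp, had 3.81, 3.25, 8.16 and 8.30 CPM in IsoL and 3.78, 3.82, 7.10 and 4.55 CPM in Model (log2 0.30, edgeR adjusted p = 0.754). Cd3g, a chain of the T cell receptor complex, was too low to test, at 0.0614, 0.0580, 0.51 and 0.55 CPM in IsoL and 0 in each Model library, where 0 reads allow up to 0.188 to 0.210 CPM. Cd3e, another chain of that complex, had 0.0614, 0, 0.32 and 0.28 CPM in IsoL and 0.14, 0, 0 and 0 CPM in Model. Cxcl10, a chemokine that draws T cells, was also too low to test, at 0.37, 0.12, 0.44 and 1.24 CPM in IsoL and 0.0699, 0.38, 0.21 and 0.0679 CPM in Model. How these genes relate to the interferon-stimulated genes was not tested.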
